A study of Mus musculus with 23 samples.

Results

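The genes described here are 9 adipocyte genes, Adipoq, Plin1, Cidec, Cfd, Lep, Fabp4, Pck1, Retn and Lipe, chosen by name and read in each library of mouse sciatic nerve (SN) as a measure of the fat that was dissected with the nerve. All 9 were present among the 43068 genes listed for the crush libraries and the 22880 genes listed for the libraries of inducible knockouts (iKO). Total RNA was sequenced in 23 libraries of 7 groups. In the crush experiment, wild-type male C57BL/6J mice aged 2 months gave crushed SNs at 3 days post crush (dpc) (n = 4), contralateral SNs of injured mice at the same time (n = 4) and SNs of uncrushed surgery controls (n = 3). From crushed nerves, 7 mm distal to the lesion were taken.

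In the iKO experiment, mice on a C57bl6 background carried floxed alleles of Dicer or Dgcr8, the genes of the enzyme and of the RNA-binding partner needed to make microRNAs. Dicer iKO and Dgcr8 iKO mice (n = 3 each) were Dicer1 flox/flox or Dgcr8 flox/flox and carried 1 copy of a CreERT2 transgene, and Dicer control and Dgcr8 control mice (n = 3 each) carried the same floxed alleles without the transgene. The Cre is expressed in myelinating Schwann cells (SCs) and was not directed to adipocytes, macrophages or fibroblasts. All groups of this experiment, controls included, received tamoxifen on 5 days at 8 to 10 weeks of age and were analysed 3 months post tamoxifen (mpT). The mutants were preselected for affected nerve morphology. By the study's methods, the number of mice in each group equals that of libraries, and contralateral nerves were taken from the injured mice. Whether a crushed and a contralateral library of the same number came from the same mouse is not given.

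Adipocytes store triglyceride in 1 large lipid droplet and release fatty acids and hormones. In peripheral nerve they lie in the epineurium, the loose connective tissue around the fascicles, and none are expected among the SCs and axons within. Adiponectin (Adipoq), adipsin or complement factor D (Cfd), resistin (Retn) and leptin (Lep) are secreted by adipocytes. Perilipin 1 (Plin1) and CIDEC (Cidec) coat and enlarge the lipid droplet, hormone-sensitive lipase (Lipe) cleaves stored lipid, FABP4 (Fabp4) carries fatty acids in the cytosol, and phosphoenolpyruvate carboxykinase (Pck1) supplies glycerol for re-esterification. Fabp4 is also a gene of macrophages and capillary endothelium, and Lipe is used by many tissues.

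Total counts per library were 6617600 to 12805921 in the crush experiment and 5594838 to 10143207 in the iKO experiment. Values are CPM, counts scaled to the library size and normalized by TMM within each experiment, and 3 counts, taken as the detection limit, corresponded to 0.236 to 0.511 CPM in the crush libraries and to 0.286 to 0.518 CPM in the iKO libraries. These limits cover counting error only. The targeted genes were counted over whole transcripts and in all cells of the nerve, so that they are a weak check of the genotype. Dicer1 was at 81.8 ± 0.414 CPM (SD, n = 3) in Dicer iKO and 88.7 ± 1.65 CPM (n = 3) in Dicer control SNs. Dgcr8 was at 45.0 ± 7.83 CPM (n = 3) in Dgcr8 iKO and 38.5 ± 3.20 CPM (n = 3) in Dgcr8 control SNs, and was thus not lower in the libraries labelled Dgcr8 iKO.

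The start sites of 4 members are shown because Adipoq, Cfd and Pck1 were high in the same pair of iKO libraries, whereas Lep had 0 counts in 1 of the pair and 5 in the other. Each sequence runs 5′ to 3′ from 250 bases before to 50 bases after a RefSeq start site on GRCm38.p6, and capitals mark every match, on either strand, to CCAAT, to the GC box GGGCGG, to the TATA box TATAAA, to the cAMP response element TGACGTNA or to the palindrome TTGCGCAA bound by C/EBP proteins.
Adipoq, adiponectin, chr16:23146286-23146585 (+ strand): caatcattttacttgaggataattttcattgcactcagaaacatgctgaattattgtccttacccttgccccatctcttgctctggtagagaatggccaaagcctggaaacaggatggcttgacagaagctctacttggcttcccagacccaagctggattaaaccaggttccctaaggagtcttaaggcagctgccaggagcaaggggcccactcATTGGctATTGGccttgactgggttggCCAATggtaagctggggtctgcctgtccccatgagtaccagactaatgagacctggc
Cfd, adipsin, chr10:79890603-79890902 (+ strand): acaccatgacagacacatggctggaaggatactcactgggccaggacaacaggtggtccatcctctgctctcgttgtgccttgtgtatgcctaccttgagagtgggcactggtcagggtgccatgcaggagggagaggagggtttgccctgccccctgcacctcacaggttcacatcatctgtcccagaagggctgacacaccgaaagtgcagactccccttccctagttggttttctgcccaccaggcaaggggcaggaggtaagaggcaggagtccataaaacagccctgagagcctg
Pck1, phosphoenolpyruvate carboxykinase, chr2:173152823-173153122 (+ strand): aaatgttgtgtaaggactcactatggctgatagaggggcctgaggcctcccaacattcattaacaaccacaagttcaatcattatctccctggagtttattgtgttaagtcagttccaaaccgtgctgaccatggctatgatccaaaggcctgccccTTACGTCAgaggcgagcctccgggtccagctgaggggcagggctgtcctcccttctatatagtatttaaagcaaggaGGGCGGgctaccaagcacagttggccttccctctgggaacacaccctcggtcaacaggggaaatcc
Lep, leptin, chr6:29059971-29060270 (+ strand): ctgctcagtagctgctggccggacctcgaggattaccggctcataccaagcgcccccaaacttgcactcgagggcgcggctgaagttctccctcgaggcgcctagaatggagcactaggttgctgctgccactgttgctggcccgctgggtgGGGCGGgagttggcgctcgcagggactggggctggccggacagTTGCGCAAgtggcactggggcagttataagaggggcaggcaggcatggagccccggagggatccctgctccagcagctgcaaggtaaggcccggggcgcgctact
RefSeq held 10 start sites for 8 of the 9 members, all but Fabp4. CCAAT stood in 1 of these 10 windows, that of Adipoq, against 37.4% of 32851 mouse promoter windows of the same length. GGGCGG stood in 3 of 10, those of Pck1, Lep and the long Lipe transcript, against 35.7%, and TATAAA in 0 of 10, against 13.6%. TGACGTNA, present in 2.93% of all windows, was found in that of Pck1, and TTGCGCAA, present in 0.183%, in that of Lep. These are matches of letters and not measured binding sites.

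In the iKO experiment, 2 of the 12 libraries stood above the rest in adipocyte RNA, 1 of a control and 1 of a mutant group. Without Fabp4 and Lipe, the other 7 members summed to 94.1 CPM in Dicer control replicate 2 and 69.8 CPM in Dgcr8 iKO replicate 2, against at most 8.38 CPM in the other 10 libraries. The 9 members together took 0.0128% of the counts (95% Wilson interval 0.0121 to 0.0137) in Dicer control replicate 2 and 0.0112% (0.0105 to 0.0118) in Dgcr8 iKO replicate 2. In the other 10 libraries the share was between 0.00113% and 0.00373%. In bulk tissue, more adipocytes and more RNA per adipocyte cannot be told apart.

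**Figure D1:**
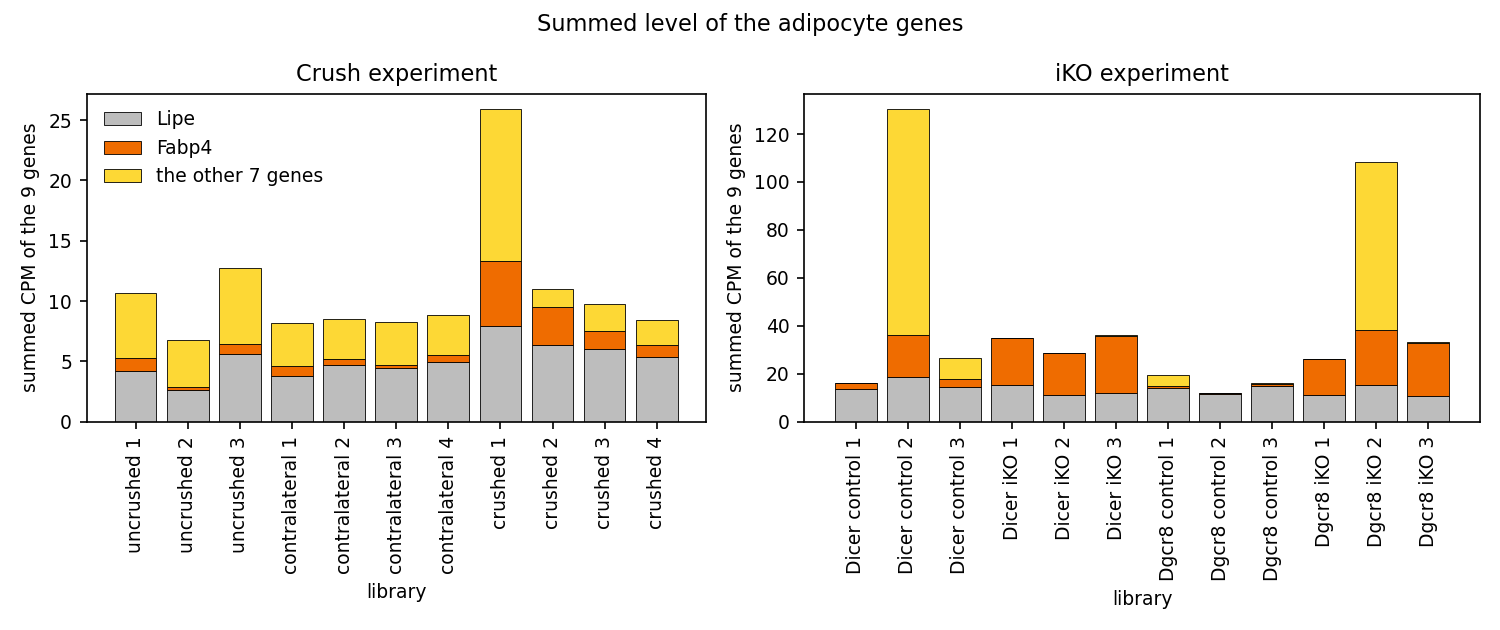
Summed CPM of the 9 genes in each library (bars, stacked from Lipe in grey, Fabp4 in orange and the other 7 genes in yellow; the vertical scales of the panels differ). The sum reached 130.4 CPM in Dicer control 2, 108.1 CPM in Dgcr8 iKO 2 and 25.9 CPM in crushed 1, and Lipe and Fabp4 made up nearly all of it in the other iKO libraries but Dicer control 3 and Dgcr8 control 1.

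Adipoq (ENSMUSG00000022878, chr16:23146536-23158028, + strand, GRCm38) was at 0, 10.05 and 1.08 CPM in the Dicer controls, 0, 0.173 and 0 CPM in Dicer iKO, 0.708, 0 and 0.207 CPM in the Dgcr8 controls, and 0, 7.06 and 0.117 CPM in Dgcr8 iKO SNs. Its highest values thus came from 1 control and 1 mutant library, and every group held a library at or below 0.207 CPM. Cfd (ENSMUSG00000061780, chr10:79890853-79892655, + strand) was at 0, 56.6 and 3.24 CPM in the Dicer controls, 0, 0 and 0.138 CPM in Dicer iKO, 1.89, 0 and 0 CPM in the Dgcr8 controls, and 0, 45.3 and 0 CPM in Dgcr8 iKO SNs. In TPM, which are scaled to transcript length as well as library size, Cfd had the highest level of the members in Dicer control 2 (146 TPM), followed by Fabp4 (45.5), Adipoq (21.3), Cidec (13.8), Lipe (13.4), Retn (9.85), Pck1 (7.41) and Plin1 (3.60).

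The lipid droplet genes and Pck1 were found in the same libraries. Cidec (ENSMUSG00000030278, chr6:113424634-113435760, - strand) had 84 counts in Dicer control 2 and 81 in Dgcr8 iKO 2, 11 in Dicer control 3, 4 in Dgcr8 control 1 and 0 in the other 8 libraries. Plin1 (ENSMUSG00000030546, chr7:79720218-79732903, - strand) had 24, 32, 5 and 4 counts in those 4 libraries and 0 in the other 8. Pck1 (ENSMUSG00000027513, chr2:173153048-173159273, + strand) had 73, 41, 9 and 5 counts there and again 0 in the other 8. A weaker presence of the same genes therefore set Dicer control 3 and Dgcr8 control 1 apart from the remaining 8 libraries. Retn (ENSMUSG00000012705, chr8:3655770-3660110, + strand) followed with 27 counts in Dicer control 2 and 24 in Dgcr8 iKO 2, and at most 2 counts elsewhere.

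Lep (ENSMUSG00000059201, chr6:29060220-29073877, + strand) was at most 5 counts in any iKO library. It had 0 counts in Dicer control 2, which allows up to 0.397 CPM, 5 counts in Dgcr8 iKO 2, 4 in Dicer control 3, and 1 or 0 in the other 9 libraries. Over the 12 libraries, with group means removed, the log2(CPM + 1) values of Adipoq, Plin1, Cidec, Cfd, Pck1 and Retn had Pearson's r of 0.975 to 0.996 with the mean of the other members, against 0.767 for Lipe, 0.746 for Fabp4 and 0.312 for Lep. These r describe libraries that share their normalization and rest mainly on the 2 libraries with the highest values.

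**Figure D2:**
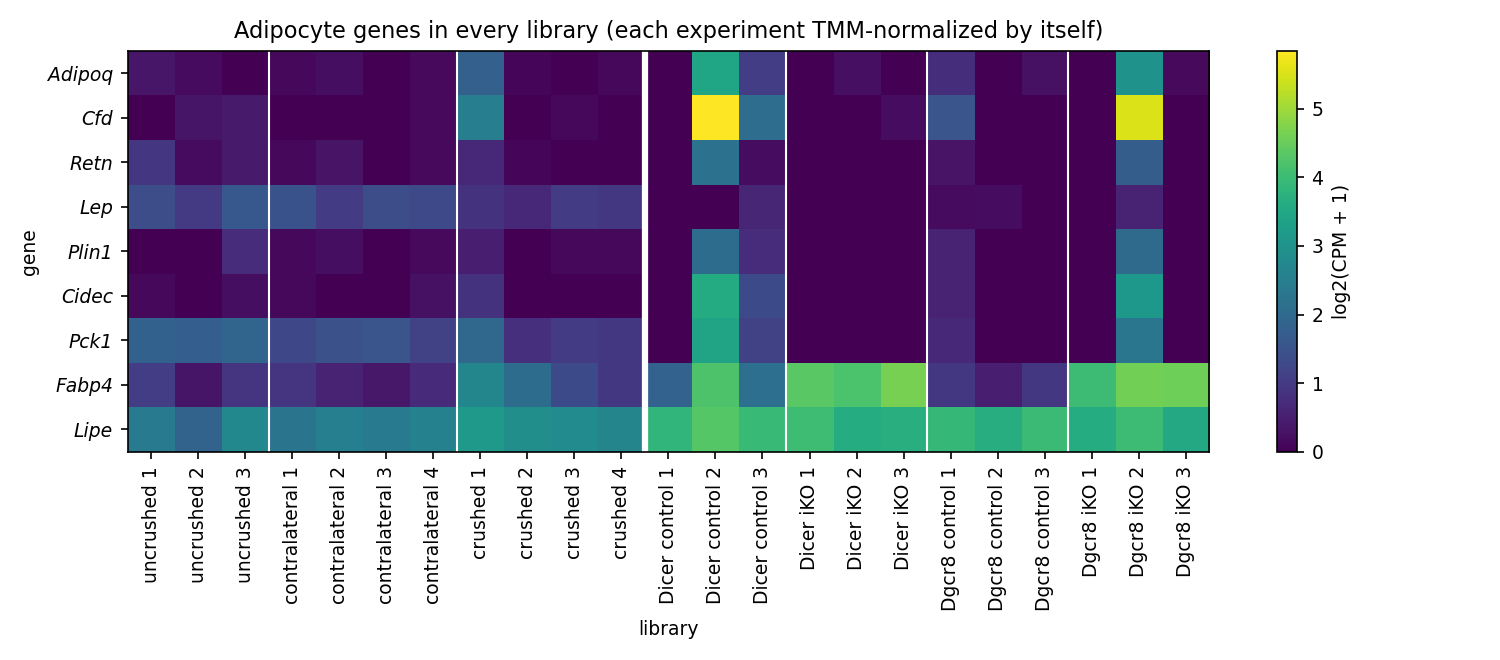
Level of each gene (rows) in each library (columns) as log2(CPM + 1), with white lines between groups and a thick line between the experiments. Dicer control 2 and Dgcr8 iKO 2 stand out for Adipoq, Cfd, Retn, Plin1, Cidec and Pck1, crushed 1 stands out among the crush libraries for Adipoq and Cfd, and Fabp4 is bright in every mutant library.

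The make-up of the adipocyte signal was compared between Dicer control 2 and Dgcr8 iKO 2, gene by gene, as the ratio of normalized counts with an exact 95% interval for counting error. The ratio of Dgcr8 iKO 2 to Dicer control 2 was 0.80 for Cfd (0.701 to 0.914), 0.702 for Adipoq (0.503 to 0.980), 0.695 for Cidec (0.506 to 0.955), 0.641 for Retn (0.354 to 1.15) and 0.962 for Plin1 (0.549 to 1.71). The ratio was lowest for Pck1, 0.405 (0.269 to 0.602), and highest for Fabp4, 1.33 (1.07 to 1.65), and was 0.808 for Lipe (0.640 to 1.02). Fabp4 was also at 15.0 and 22.4 CPM in the other Dgcr8 iKO libraries, which had 0 Cfd counts. Its ratio therefore does not measure the make-up of the adipocyte signal. The Pck1 interval lay below those of Cfd, Lipe and Fabp4 but overlapped those of Adipoq, Cidec, Retn and Plin1, and the Fabp4 interval overlapped those of Retn and Plin1. Being single libraries, they compare 2 nerves and not 2 genotypes. Cfd counts per Adipoq count were 5.63 (4.4 to 7.29) and 6.42 (5.02 to 8.32) in these libraries, and 3.00 (1.30 to 7.72) in Dicer control 3 and 2.67 (0.991 to 8.32) in Dgcr8 control 1, where counts were few.

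Outside the members, the genes that varied most like them across the 12 libraries were Cyp2e1, a cytochrome P450 (r = 0.994, Spearman's rho 0.972), Car3, the carbonic anhydrase abundant in adipocytes (r = 0.973, rho 0.965), Thrsp, a regulator of lipid synthesis (r = 0.918, rho 0.755), Hrct1 (r = 0.873, rho 0.741) and Senp8 (r = 0.868, rho 0.650), out of 13255 genes compared. Car3 was at 58.3 CPM in Dicer control 2 and 47.4 CPM in Dgcr8 iKO 2, 6.89 CPM in Dicer control 3, 5.67 CPM in Dgcr8 control 1 and at most 0.622 CPM in the other 8. Cyp2e1 was at 25.8, 15.6, 1.89 and 2.01 CPM in those 4 libraries and at most 0.399 CPM in the others. Both genes ranked the same 4 libraries above the rest. This follows from their choice by likeness to the members and is no separate evidence. Thrsp reached 4.23 CPM in Dicer control 2 and 5.63 CPM in Dgcr8 iKO 2 but was between 0.816 and 2.80 CPM elsewhere, and Senp8 stood at 11.4 and 10.49 CPM in the pair, within the 7.47 to 12.7 CPM of the other libraries. Hrct1 was at 10.4 CPM in Dicer control 2 but at 6.10 CPM in Dgcr8 iKO 2, within its range elsewhere of 4.60 to 7.30 CPM.

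Among listed adipocyte genes outside the members, Acvr1c, a receptor of the activin family, was at 2.78 CPM in Dicer control 2 and 1.91 CPM in Dgcr8 iKO 2 and at most 0.472 CPM in the other iKO libraries. Lgals12, a galectin of lipid droplets, was at 0.926 and 0.763 CPM there and at most 0.144 CPM elsewhere. Both are named because they followed the pair, which several other listed genes did not. Adrb3 and Thrsp also had their highest values in the pair. Adrb3 was at 0.132 and 0.477 CPM there, of which only the second exceeded the detection limit, and at most 0.117 CPM elsewhere. Dgat2 was highest of its group in each of the pair, at 18.8 and 15.4 CPM. Aqp7 was lowest of its group in each of the pair, at 0.132 and 0.286 CPM, at or below the detection limit. Plin4 was at 128 CPM in Dicer control 2, between 61.9 and 213 CPM, and at 28.2 CPM in Dgcr8 iKO 2, above 6.61 and 13.6 CPM in its group. Of 8 brown and beige adipocyte markers, Ucp1 and Elovl3 had 0 counts in all 12 libraries. Cidea and Cox8b stayed below the detection limit, with their highest values, 0.264 and 0.132 CPM, in Dicer control 2. Counts this low cannot decide whether they follow the members. Dio2, Cox7a1, Prdm16 and Ppargc1a stood in Dicer control 2 and Dgcr8 iKO 2 within their range in the other iKO libraries. Skeletal muscle markers, 12 genes, had their highest sum in Dicer control 3 (31.2 CPM), and stood at 10.3 CPM in Dicer control 2 and 8.68 CPM in Dgcr8 iKO 2, within the 4.08 to 31.2 CPM of all iKO libraries. Dpt, a gene of connective tissue fibroblasts, was at 16.0 CPM in Dicer control 2 against 4.2 CPM in Dgcr8 iKO 2 and 1.36 to 6.12 CPM in the rest. Dpt belongs to a list of 9 genes of adipocyte precursors and connective tissue stroma. Their sum was 879 CPM in Dicer control 2, between 497 and 1191 CPM of its group, and 591 CPM in Dgcr8 iKO 2, between 542 and 609 CPM.

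In the tests between genotypes, edgeR's filter on low counts kept only Fabp4 and Lipe of the 9 members, because the remaining 7 were near 0 in most libraries. Fabp4 (ENSMUSG00000062515, chr3:10204088-10208576, - strand) behaved unlike the other members. It was at 15.0, 23.2 and 22.4 CPM in Dgcr8 iKO and at 0.944, 0.408 and 0.933 CPM in Dgcr8 control SNs, with no overlap. Its log2 fold change was 4.67 (SE 0.312, adjusted p = 2.35e-06), from the quasi-likelihood test of edgeR adjusted over all genes by Benjamini and Hochberg's method, and 13.4% of the 13252 genes tested were called higher and 6.99% lower in this comparison, at an adjusted p of at most 0.05 and at least a 2-fold change. Without Dgcr8 iKO 2, the library with adipocyte RNA, it was 4.56 (adjusted p = 1.90e-06).

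In Dicer iKO SNs, Fabp4 was at 19.6, 17.3 and 24.1 CPM, against 2.59, 17.5 and 3.38 CPM in the Dicer controls. Dicer control 2, with its adipocyte RNA, lay among the mutants, and the other control libraries lay well below. The log2 fold change was 1.37 (SE 0.621, adjusted p = 0.154), so Fabp4 was not called, where 7.37% of 13045 genes were called higher and 1.64% lower. Without Dicer control 2, Fabp4 rose by 2.76 (SE 0.265, adjusted p = 0.0138). Leaving out any other single library gave log2 fold changes of 0.96 to 1.48, and Fabp4 was not called.

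**Figure D3:**
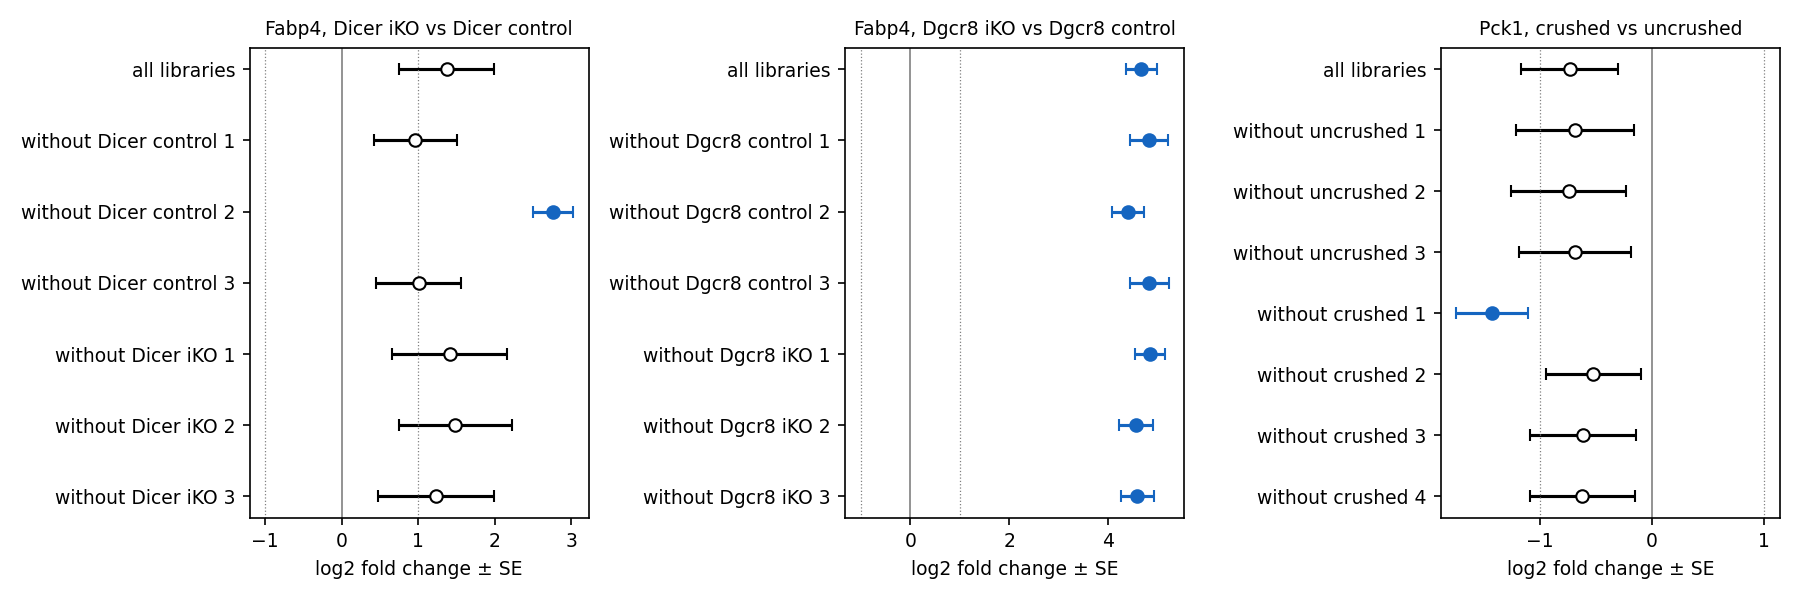
Log2 fold change ± SE (edgeR's quasi-likelihood test) of Fabp4 in the mutants and of Pck1 after crush, with all libraries and with each library left out; filled blue points passed the adjusted p and 2-fold limits, open points did not, and dotted lines mark a 2-fold change. Fabp4 in Dicer iKO passed only without Dicer control 2 and Pck1 in crushed SNs only without crushed 1, whereas Fabp4 in Dgcr8 iKO passed in every case.

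The difference between the Dgcr8 and Dicer effects on Fabp4 was 3.30 on the log2 scale (SE 0.863, adjusted p = 0.163, interaction term), and 0.0148% of 13552 genes passed in that test. DESeq2's Wald test gave 3.34 with an adjusted p of 0.00722. Without Dicer control 2 the difference was 1.91 (adjusted p = 0.312), and without both Dicer control 2 and Dgcr8 iKO 2 it was 1.80 (adjusted p = 0.319). Of the 4 members tested, 0 passed after adjustment. An unadjusted p under 0.05 was found for 3 of them (Fabp4, Cfd and Cidec) and for 1861 of the 13552 genes. For Cfd and Cidec this rests on the same pair of libraries, and they passed the filter only through the few libraries where they were not near 0.

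Markers of macrophages, which also use Fabp4, were higher in the mutants. Of 6 macrophage markers, 4 were called higher and 1 lower in Dgcr8 iKO SNs (median log2 fold change 2.20, against -0.01 for all genes tested), and 3 were called higher in Dicer iKO SNs (median 1.81, against -0.01). Their sum was 2307 to 5592 CPM in Dgcr8 iKO and 354 to 420.5 CPM in Dgcr8 control SNs, and 3685 to 6496 CPM in Dicer iKO and 363 to 1100 CPM in Dicer control SNs. Within the mutants, Dgcr8 iKO 2 had the lowest macrophage sum (2307 CPM) and the second highest Fabp4 (23.2 CPM) of the 6 libraries. Dicer control 2, at 710 CPM of macrophage markers, lay between the other Dicer controls (363 and 1100 CPM) while its Fabp4 exceeded theirs. Of 7 endothelial markers, 2 (Gpihbp1 and Cldn5) were called lower in Dgcr8 iKO SNs, and the median log2 fold change was -0.49 in Dicer iKO and -0.26 in Dgcr8 iKO SNs. The shares of all genes tested were 13.4% higher and 6.99% lower in Dgcr8 iKO, and 7.37% higher in Dicer iKO SNs. The share of macrophages and endothelium in the Fabp4 values was not tested.

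**Figure D4:**
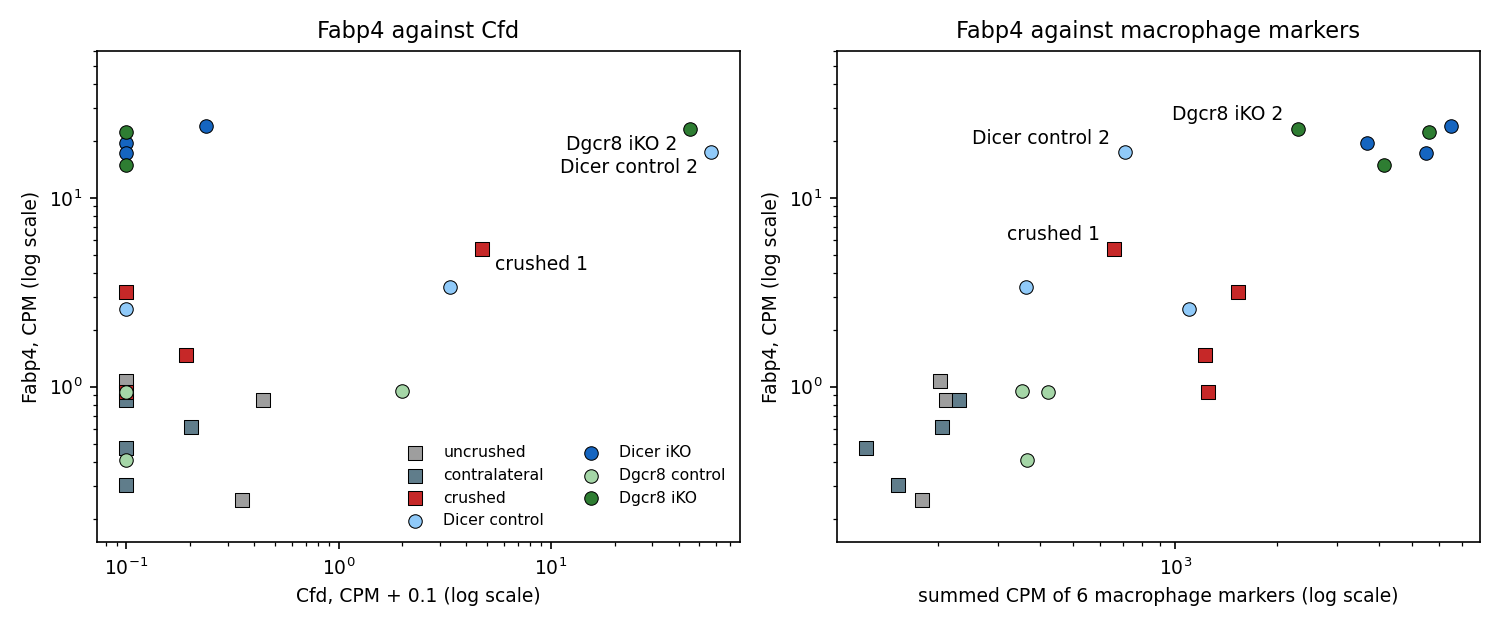
Fabp4 (CPM, log scale) in each library against Cfd (left, CPM + 0.1, log scale) and against the summed CPM of 6 macrophage markers (right, log scale); circles are iKO and squares crush libraries, coloured by group. Fabp4 is 15.0 CPM or more in all 6 mutant libraries, of which 1 (Dgcr8 iKO 2) has Cfd above the detection limit, and is 17.5 CPM in Dicer control 2.

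Lipe (ENSMUSG00000003123, chr7:25379527-25398710, - strand) was present in all 12 iKO libraries at 10.6 to 18.8 CPM. Its log2 fold change was -0.29 (SE 0.196, adjusted p = 0.333) in Dicer iKO and -0.12 (SE 0.193, adjusted p = 0.627) in Dgcr8 iKO SNs. Its highest values, 18.8 and 15.3 CPM, came from Dicer control 2 and Dicer iKO 1, and Dgcr8 iKO 2 was at 15.2 CPM against 11.3 and 10.6 CPM in its group, while the 7 libraries with 0 Cfd counts ranged from 10.6 to 15.3 CPM.

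In the crush experiment Adipoq, Cfd and Cidec were at or below the detection limit of 3 counts in 10 of the 11 libraries, and crushed replicate 1 stood apart. The members summed to 25.9 CPM there, against 8.39 to 11 CPM in the other crushed, 8.21 to 8.82 CPM in contralateral and 6.75 to 12.8 CPM in uncrushed SNs. Cfd had 58 counts in crushed 1 and at most 2 in each of the other 10 libraries, Adipoq had 31 against at most 3, and Cidec 10 against at most 2. Plin1 reached 5 counts and Retn 7 in crushed 1, within reach of uncrushed SNs, where Plin1 had up to 4 and Retn up to 10.02 expected counts. Crushed 1 had 1.87 Cfd counts per Adipoq count (1.19 to 2.99). The experiments used different library kits, so that levels are not compared between them.

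In crushed against uncrushed SNs, 4 members (Fabp4, Lipe, Lep and Pck1) passed the filter and 1, Fabp4, was called. Fabp4 was at 5.38, 3.18, 1.47 and 0.943 CPM in crushed SNs, at 1.08, 0.250 and 0.852 CPM in uncrushed SNs and at 0.849, 0.471, 0.301 and 0.615 CPM in contralateral SNs. The lowest crushed library lay below the highest uncrushed library, and all crushed libraries lay above the contralateral ones. The log2 fold change was 1.97 against uncrushed (SE 0.634, adjusted p = 0.0158) and 2.31 against contralateral SNs (SE 0.525, adjusted p = 0.00139), tests that share the crushed libraries. Without crushed 1 the values were 1.38 (adjusted p = 0.0475) and 1.72 (adjusted p = 0.00461), and without uncrushed 2 the first was 1.61 and no longer called (adjusted p = 0.0613). Of all genes tested, 15.3% were called higher and 21.1% lower against uncrushed, and 14.6% higher and 13.6% lower against contralateral SNs. Macrophage markers rose here too, with 5 of 6 called higher in each comparison, and summed to 661 CPM in crushed 1 and 1225 to 1534 CPM in the other crushed SNs, against 122 to 230 CPM in the controls. Crushed 1 thus had the highest Fabp4 and the lowest macrophage sum of its group. Of 7 endothelial markers, 3 were called higher and 1 lower in each comparison. The endothelial sum was 206, 200, 193 and 172 CPM in the crushed SNs, in order of replicate, against 132 to 160 CPM in the controls. The part of adipocytes, macrophages or endothelium in Fabp4 was not tested.

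Pck1, like Lep and Lipe, was above 3 counts in all crush libraries, at 2.52, 2.38 and 2.73 CPM in uncrushed, 1.41, 1.73, 1.91 and 1.23 CPM in contralateral, and 2.89, 0.733, 1.01 and 0.943 CPM in crushed SNs. Apart from crushed 1, the crushed libraries lay below all others. The log2 fold change against uncrushed SNs was -0.73 (SE 0.434, adjusted p = 0.151) with all libraries, and without crushed 1 Pck1 fell by 1.42 on the log2 scale (SE 0.320, adjusted p = 0.00245). Against contralateral SNs it was -0.14 (SE 0.401, adjusted p = 0.770), and without crushed 1 it was -0.83 (adjusted p = 0.0383), which is less than 2-fold. In contralateral against uncrushed SNs it was -0.69 (SE 0.277, adjusted p = 0.232). In that comparison 0 of the 3 members tested and 0% of 17722 genes were called, while 1 member and 3165 genes had an unadjusted p under 0.05, and DESeq2 called 31 genes and 0 members.

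Lipe and Lep moved by less than 2-fold after crush. Lipe was at 7.94, 6.35, 6.05 and 5.37 CPM in crushed and at 4.23, 2.63 and 5.62 CPM in uncrushed SNs, a log2 fold change of 0.76 (SE 0.239, adjusted p = 0.0143), and of 0.55 against contralateral SNs (SE 0.163, adjusted p = 0.00893). Lep was at 0.802, 0.570, 1.01 and 0.943 CPM in crushed, 1.62, 1.0 and 2.05 CPM in uncrushed, and 1.79, 1.02, 1.61 and 1.44 CPM in contralateral SNs, with log2 fold changes of -0.78 (SE 0.366, adjusted p = 0.0764) and -0.79 (SE 0.304, adjusted p = 0.0336), the latter at an adjusted p of 0.0953 with DESeq2. In crushed 1, where Cfd and Adipoq were highest, Lep was not raised. By the adjusted p alone, 2 of 4 members passed against uncrushed and 3 of 4 against contralateral SNs, where 67.2% and 66.4% of all genes passed.

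The transcript models behind these counts differed between experiments. The experiments also differed in library kit, so a difference between nerves cannot be told apart from one between kits. The authors' RSEM run divides reads among overlapping models, so that the division is an estimate. All Pck1 counts of the iKO libraries, 73 in Dicer control 2 and 41 in Dgcr8 iKO 2, were placed on the protein-coding model, whereas in the crush libraries 73.0% to 100% were placed on retained-intron models, also in crushed 1 (36 of 36 counts). For Fabp4, the retained-intron model took 69.2% to 100% of the few counts in uncrushed and contralateral SNs, 16.0% to 40.4% in crushed SNs, 15.7% to 33.9% in the mutants and 25.8% to 33.3% in Dgcr8 control SNs, where Fabp4 had only 3 to 9 counts. In Dicer control 2, where Fabp4 accompanied adipocyte RNA, it took 3.11% (4.10 of 132 counts), and in the other Dicer controls 0% and 4.16%. Among the mutants the share was lowest in Dgcr8 iKO 2. The short Lipe model took 27.1% to 79.3% of Lipe counts in the iKO libraries. It took 65.7% in Dicer control 2, against 37.4% and 57.1% in its group, and 77.1% in Dgcr8 iKO 2, against 49.7% and 64.5%. Both shares were the highest of their group but lay within the range of libraries without adipocyte RNA, of which Dgcr8 control 3 was at 79.3%.

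**Figure D5:**
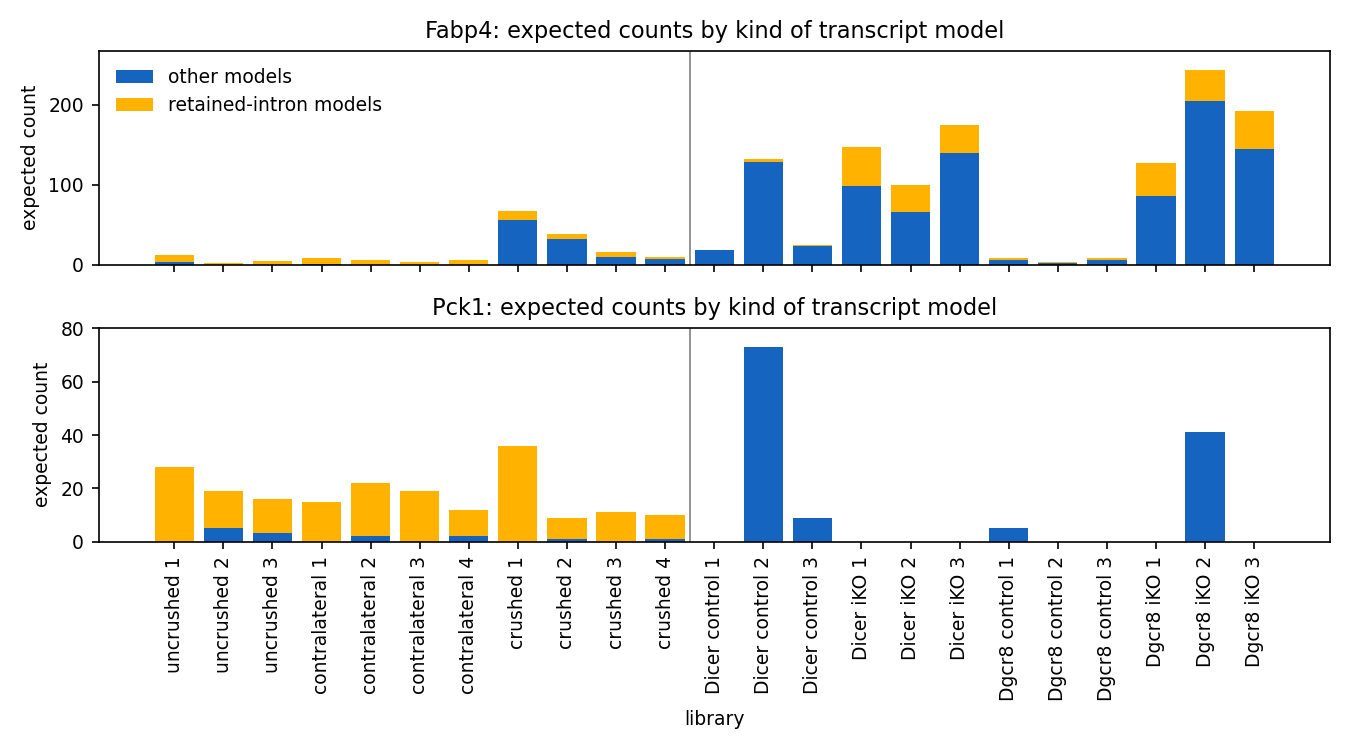
Expected counts of Fabp4 and Pck1 in each library, divided into retained-intron models (yellow) and all other models (blue); the grey line separates the crush (left) from the iKO libraries (right). Pck1 counts are mostly yellow in the crush libraries and blue in the 4 iKO libraries that have any, and Fabp4 in Dicer control 2 is blue but for 3.11% of its counts.

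Other genes of lipid storage were followed from lists that hold none of the members. Of 20 genes of lipid droplets and lipolysis, 15 were tested in the mutants, and 3 were called higher and 1 lower in Dgcr8 iKO (median log2 fold change -0.06) and 2 higher in Dicer iKO SNs (median -0.22). Of all genes, 13.4% were called higher and 6.99% lower in Dgcr8 iKO, and 7.37% higher in Dicer iKO SNs. Plin2, the droplet coat protein of most cells, rose by 2.48 (SE 0.215) in Dgcr8 iKO and 1.87 in Dicer iKO SNs, and Cd36, a fatty acid transporter, by 2.29 and 1.47. Lpl, lipoprotein lipase, rose by 1.69 in Dgcr8 iKO SNs, where Plin4 fell by 2.46. Plin2 was at 31.2 CPM in Dicer control 2, between 38.8 and 25.5 CPM of the other Dicer controls. In crushed against contralateral SNs, 3 of 17 tested (Plin2, Cd36 and Hilpda) were called higher and 2 (Plin4 and G0s2) lower, where 14.6% and 13.6% of all genes were called.

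Of 18 adipocyte transcription factors and insulin response genes, 14 were tested in the mutants, where 5 were called higher and 1 lower in Dgcr8 iKO (median -0.02) and 3 higher in Dicer iKO SNs (median -0.08). The shares of all genes tested were 13.4% higher and 6.99% lower in Dgcr8 iKO, and 7.37% higher in Dicer iKO SNs. Pparg, the factor that directs adipocyte formation and is also used by macrophages, rose by 2.08 in Dgcr8 iKO and 1.29 in Dicer iKO SNs, and Cebpa by 3.06 and 1.87. Pparg was at 1.45 CPM in Dicer control 2, between 1.87 and 1.22 CPM of its group, and at 3.91 CPM in Dgcr8 iKO 2, between 3.54 and 4.67 CPM. Cebpa was at 21.2 CPM in Dicer control 2, the highest of its group (18.4 and 8.92 CPM in the others), and at 37.9 CPM in Dgcr8 iKO 2, the lowest of its group (49.3 and 70.0 CPM). Of 17 tested after crush, 7 were called higher and 2 lower against contralateral SNs (median 0.82, against -0.06 for all genes), where 14.6% and 13.6% of all genes were called.

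Of 8 genes of fatty acid synthesis, a pathway that myelinating SCs use as well, 7 were called lower in crushed against contralateral SNs (median -1.68), and 1 (Me1) in Dgcr8 iKO SNs, and the median was -0.31 in Dicer iKO SNs. The shares of all genes called lower were 13.6% in crushed against contralateral and 6.99% in Dgcr8 iKO SNs. Among 14 relatives of the members, Fabp5 rose by 2.0 in Dicer iKO, 1.27 in Dgcr8 iKO and 2.0 in crushed against contralateral SNs, and Pmp2, the FABP of myelin, fell by 3.60 after crush. Retnlg, a resistin relative of neutrophils, was at 8.99 to 21.4 CPM in crushed SNs and at most 0.180 CPM in the controls, while Retn was not raised with it (0.562, 0.0815, 0 and 0 CPM in crushed SNs).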

How the data were processed

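Total RNA of mouse SNs was sequenced in 23 libraries. The crush libraries were made with a SMARTer pico kit after removal of ribosomal RNA, and the iKO libraries with a stranded TruSeq kit after Ribo-Zero treatment, per the labels, so that levels were not compared between experiments. The authors trimmed reads with Trimmomatic and aligned them with STAR to GRCm38, and their deposited files give RSEM expected counts, TPM and FPKM per transcript. The deposited TPM were used only for levels between genes and for 1 alternative, and the deposited FPKM were not used.

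Expected counts were summed per gene, symbols and positions were taken from the annotation of GRCm38, and sums were rounded to whole numbers for the tests. Total counts were 5594838 to 12805921 per library, and all intervals and limits cover counting error only. Each comparison was fitted on its own groups with edgeR 4.0.16 in R 4.3.3 (TMM normalization, filterByExpr with a minimum count of 10, quasi-likelihood test), with Benjamini-Hochberg adjustment over all genes tested. A gene was called at an adjusted p of at most 0.05 and a change of at least 2-fold, except in the interaction test, where the adjusted p alone was used. The procedure was tested on simulated data. Alternatives were RLE normalization, no filter, DESeq2 1.42.0, all groups in 1 fit, the replicate number as a block, each library left out, another pseudocount and other sums of the members. Likeness was the correlation of log2(CPM + 1), group means removed, with the mean over the members, among genes with a mean of at least 1 on that scale. The 5 most alike genes per experiment, the members, and called members of the lists were named. The members and lists were chosen with earlier results of these data known. The omission of both high iKO libraries and of Lipe together with Fabp4 were alternatives chosen after seeing the data. No 2 libraries of a group were copies, since their counts differed beyond sampling noise in all 27 pairs.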

Additional observations from a re-analysis of the deposited data

Results flagged for a closer look

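In groups of 4, a library was listed when its gap to the nearest other library exceeded, as a share of the group's range, Dixon's critical value at 95%, which chance gives in about 1 of 20 groups. Of 20 groups of values tested, 7 were listed, and 6 of these were crushed replicate 1. The 20 groups are not independent, since the members come from the same libraries and the summed share contains them. The rate of 1 in 20 also does not hold for counts that are mostly 0, so the number listed is not set against it. In that library Adipoq was at 2.49 CPM (nearest other crushed library 0.0943), Cfd at 4.65 CPM (0.0917), Cidec at 0.802 CPM (0), Pck1 at 2.89 CPM (1.01) and Retn at 0.562 CPM (0.0815). The 9 members together took 0.00278% of its counts, against at most 0.00112% in the other crushed libraries. Cfd in contralateral replicate 4, at 0.103 CPM, was listed as well, but this is 1 count against 0 in the other contralateral libraries and lies below the detection limit. The groups of 3 libraries, which include Dicer control 2 and Dgcr8 iKO 2, were too small for this comparison.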

How the results depend on the processing

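Of 262 member values under an alternative, 245 kept their direction and side of the threshold, 7 gained and 1 lost a call and 9 turned in sign. With the adjusted p alone, 11712 genes were called in crushed against uncrushed, 11069 in crushed against contralateral, 2764 in Dicer iKO and 5898 in Dgcr8 iKO SNs, and 2 and 3 members in the crush comparisons, where 1 was called otherwise. With no filter, 3 members were called in each crush comparison, 1 (Cfd, lower) in Dicer iKO and 4 in Dgcr8 iKO SNs, the added calls being of genes found mainly in 1 library. With 1 library left out, the members called numbered 0 to 2 in crushed against uncrushed, 0 to 2 in Dicer iKO (Cidec and Cfd, both lower, without Dicer control 1), 1 to 2 in Dgcr8 iKO (Cfd was added without Dgcr8 iKO 1 or 3) and 0 to 1 in the interaction (Fabp4 without Dicer control 3, 3.66, adjusted p = 0.0262, edgeR). Cidec and Cfd were not tested in the main Dicer iKO and Dgcr8 iKO fits, and passed the filter here through the libraries where they were high. Of all genes, 1401 of 13291 were called without Dicer control 1. Without Dgcr8 iKO 1 it was 2673 of 13486, and without Dgcr8 iKO 3 it was 2563 of 13472. DESeq2 called 1 member in the interaction.

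In contralateral against uncrushed SNs, where 0 genes were called, there were 141 with no filter, 31 with DESeq2, 1 with all groups in 1 fit and 0 to 95 with 1 library left out (95 without uncrushed 2). In Dicer iKO SNs, where 1175 were called, leaving out a library gave 572 to 1411 (704 without Dicer control 2, 623 without Dicer iKO 2 and 572 without Dicer iKO 3). In the interaction, with 2 genes, there was 1 with RLE normalization, 20 with no filter, 235 with DESeq2, 0 to 401 with 1 library left out (401 without Dicer control 3) and 0 without both Dicer control 2 and Dgcr8 iKO 2. The cause was not tested. The replicate block gave 6 genes in contralateral against uncrushed SNs, 640 in Dicer iKO SNs and 0 in the interaction, and changed no call of a member. The numbers are not stated to pair libraries, also not for crushed and contralateral nerves, which share mice, and r of the deviations was -0.15 to 0.16 over 16 same-numbered pairs and exceeded 0.1 in 2.

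Log2 fold changes that turned in sign were all uncalled. Pck1 in crushed against contralateral SNs was 0.018 with no filter and -0.83 to 0.050 with 1 library left out, Lipe and Lep in contralateral against uncrushed SNs were -0.11 to 0.35 and -0.30 to 0.11, and the interaction was -0.16 for Lipe and -0.64 for Cfd without both high libraries. With 1 or both left out it spanned -0.16 to 0.32 for Lipe and -0.64 to 18.2 for Cfd, whose fitted values depend on libraries at 0. The log2 ratio of the highest to the median library was 1.57 in the crush experiment and 2.33 by summed TPM, and 2.17 in the iKO experiment and 9.17 without Fabp4 and Lipe. With a pseudocount of 0.1, 3 of the 5 most alike genes of the iKO experiment were shared. Counts of 3 or fewer limit what can be said of Adipoq, Cfd, Cidec, Plin1 and Retn in most libraries.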

Other observations

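In the crush experiment, the genes most like the mean of the members over 11 libraries, with group means removed, were Lrrn4cl (r = 0.963, rho 0.891), Adgrd1 (r = 0.960, rho 0.909), BC034090 (r = 0.943, rho 0.8), Ly6g6d (r = 0.920, rho 0.873) and Cilp (r = 0.900, rho 0.718), out of 16600 genes. Each was highest among the crushed SNs in crushed 1, such as Cilp at 8.27 CPM against 0.642 to 1.23 CPM in the others. They were chosen by likeness to the members, so these r are no separate evidence. The members themselves had r with the mean of the others from 0.0849 for Lep to 0.956 for Cidec. Dpt, a gene of connective tissue fibroblasts, was at 3.53 CPM in crushed 1 against 0.896, 1.38 and 0.943 CPM in the other crushed SNs, and at 1.02 to 3.24 CPM in the controls. The list of 9 genes of adipocyte precursors and connective tissue stroma, which holds Dpt, did not follow it. Its sum was 215 CPM in crushed 1, the lowest of its group, against 265 to 282 CPM in the other crushed SNs.

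Dio2, an enzyme that activates thyroid hormone and is listed among brown adipocyte genes, was called higher in all 4 comparisons with an injured or mutant group, by 2.95 and 3.61 on the log2 scale in crushed against uncrushed and contralateral SNs, 4.46 in Dicer iKO and 6.31 in Dgcr8 iKO SNs. Retnla, a relative of resistin used by macrophages, fell by 4.03 in Dicer iKO and 4.43 in Dgcr8 iKO SNs.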
